A study of Mus musculus with 18 samples.

Results

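The collagen chain genes are the genes for the alpha chains from which every collagen trimer is assembled. They were taken as all gene symbols of the form Col, a type number, a and a chain number, and 44 of the 55453 symbols in the count tables met this rule. Symbols of related secreted proteins with a collagen-like stretch were not included. The study edited a CArG box, the binding site of serum response factor, upstream of mouse *Tspan2*, and sequenced RNA of whole aortae from homozygous edited and wild-type mice. Founders of both lines came from B6(Cg)-Tyr2J/J and FVB/NJ parents and were crossed to C57BL/6J, and heterozygous offspring were then mated with each other. In the HDR experiment 3 base pairs of the box were substituted with Cas9, a guide and a repair template, and 5 wild-type and 5 homozygous *sg/sg* aortae of 12-week-old mice labelled C57BL/6 were sequenced, 3 from females and 2 from males in each group. In the PE2 experiment, in which a prime editor (a nickase fused to a reverse transcriptase) wrote a single-base change into the same box, 4 wild-type and 4 homozygous *peg/peg* aortae of 8-week-old mice labelled FVB/N/B6(Cg)-Tyrc-2J/J were sequenced, all from females except wild-type replicate 4. The labels name separate animals. The HDR count columns are named WT_2 to WT_6 and Mut_2 to Mut_6, numbers that do not tie a column to a labelled animal or its sex, so these names are used for the HDR libraries.

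Collagens are the main structural proteins of the vessel wall. Fibrillar types I, III and V, made by adventitial fibroblasts and medial smooth muscle cells, form the fibrils that carry tensile load, and type IV forms the sheet-like network of basement membranes around smooth muscle cells and under the endothelium. Type VI forms beaded filaments that link cells to the fibrils. Some FACIT collagens, such as types XII and XIV, decorate fibril surfaces, and the multiplexins, types XV and XVIII, sit at basement membranes. A type I trimer holds the products of *Col1a1* and *Col1a2*, the most common type IV trimer those of *Col4a1* and *Col4a2*, and a type VI trimer those of *Col6a1*, *Col6a2* and a longer chain such as that of *Col6a3*.

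*Tspan2*, the edited gene, was 113 to 264 CPM (the CPM scale of edgeR, TMM-normalised over all 18 libraries) in HDR wild type, 15.8 to 36.9 CPM in *sg/sg*, 179.8 to 290.0 CPM in PE2 wild type and 11.9 to 25.4 CPM in *peg/peg*, so every library followed its genotype label. The difference was -3.07 ± 0.27 (adjusted p = 0.00226, edgeR) on the log2 scale in *sg/sg* and -3.45 ± 0.29 (adjusted p = 0.0292, edgeR) in *peg/peg* relative to wild type. The summed level of 7 smooth muscle markers (such as *Acta2* and *Myh11*) was 16914 to 57945 CPM over the 18 libraries, so smooth muscle RNA was high in all of them. The methods state that the aortae were cleaned of periadventitial tissue. The HDR libraries held 17290992 to 24880385 counts each, and those of PE2 held 38820265 to 44895615. PE2 *peg/peg* replicate 3 stood apart from every other library. Its median Spearman correlation with the rest of its group was 0.923 across genes, against 0.967 to 0.986 for the other 17 libraries with theirs. Of 39 chain genes above the expression filter, 30 (76.9%) lay outside the range of the other 7 PE2 libraries in it, and of all 18094 genes 53.5% did. Its 6 skeletal muscle markers summed to 1128 CPM against 7.48 to 19.6 CPM in the other PE2 libraries, its 7 fibroblast markers to 8683 against 1730 to 4691 CPM, its 6 adipocyte markers to 177 against 1412 to 4589 CPM and its 7 cartilage markers to 2.80 against 21.8 to 44.2 CPM, with *Acan* at 0.0437 CPM. The skeletal muscle sum was mostly *Acta1* (753 CPM), *Ckm* (299 CPM) and *Tnnt3* (73.9 CPM). *Myh4* was also above the other PE2 libraries, at 0.984 CPM, but *Atp2a1* (0.153 CPM) and *Mylpf* (0.962 CPM) were below them. HDR WT_3 held skeletal muscle markers at a sum of 125 CPM against 5.22 to 73.3 CPM in the other HDR libraries. When WT_3 was left out, the log2 fold change of *sg/sg* over wild type rose for *Acta1*, *Ckm* and *Tnnt3*. It went from -1.99 to 1.99, from -0.50 to 1.95 and from 0.04 to 1.44 in that order. It changed little for *Myh4* (4.29 to 4.19), *Atp2a1* (2.80 to 2.97) and *Mylpf* (1.25 to 1.27). In WT_3, 8 of 39 chain genes (20.5%, against 15.8% of all genes outside the range) lay above the other 9 libraries and none below. HDR Mut_4 had 20 of 39 chain genes outside (51.3%, against 21.1%), 16 of them below. Over all genes the HDR library most often outside was Mut_6 (38.9%, with 12 of 39 chain genes). Results that rest on *peg/peg* replicate 3 or WT_3 are given with and without them. In bulk tissue, fewer cells of a type and less RNA per cell cannot be told apart.

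The 44 genes lie on many chromosomes, and several partners sit side by side (GRCm38, Gencode M21). *Col4a1* (chromosome 8, 11198423 to 11312826, minus strand) and *Col4a2* (11312805 to 11449287, plus strand) are transcribed away from each other and their annotated 5′ ends overlap by 22 bases. *Col4a4* and *Col4a3* on chromosome 1 start 71 bases apart on opposite strands, and *Col4a6* and *Col4a5* on chromosome X are 1308 bases apart. *Col6a2* and *Col6a1* on chromosome 10 are both on the minus strand with 85.2 kb between them, and *Col3a1* and *Col5a2* on chromosome 1 face each other across 24.6 kb. The RefSeq promoter table (GRCm38.p6) held 35 of the 44 genes, without *Col1a1*, *Col2a1*, *Col5a2*, *Col12a1*, *Col14a1*, *Col22a1*, *Col26a1*, *Col9a3* and *Col4a3*. In the 250 bases before the start site, the letters GGGCGG or CCGCCC (a GC box, either strand) occurred in 21 of these 35 genes (60.0%) and in 32.7% of all 32851 promoters in the table, while CCAAT or ATTGG occurred in 12 (34.3%, against 33.8%) and TATAAA on the gene's strand in 5 (14.3%, against 7.59%). The CArG box, the motif edited at *Tspan2*, was matched in 1 of the 35 genes, *Col6a4*, and in 1.47% of all promoters. These are letter matches in a short window and do not show binding. The 120 bases before the start site are shown for *Col3a1*, *Col6a2* and *Col5a1*, whose RNA was higher in both contrasts between the experiments described below and whose windows overlap no annotated exon of a collagen gene, as examples. They read 5′ to 3′ on the gene's strand, with capitals marking TATAAA in *Col3a1* and a GC box in *Col5a1*.
Col3a1 (GRCm38.p6, chr1:45311418-45311537, plus strand): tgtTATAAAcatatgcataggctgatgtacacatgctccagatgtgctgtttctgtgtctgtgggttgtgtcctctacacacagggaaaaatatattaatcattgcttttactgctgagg
Col6a2 (GRCm38.p6, chr10:76623631-76623750, minus strand): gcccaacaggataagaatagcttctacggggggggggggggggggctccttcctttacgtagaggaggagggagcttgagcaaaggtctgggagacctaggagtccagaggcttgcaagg
Col5a1 (GRCm38.p6, chr2:27886305-27886424, plus strand): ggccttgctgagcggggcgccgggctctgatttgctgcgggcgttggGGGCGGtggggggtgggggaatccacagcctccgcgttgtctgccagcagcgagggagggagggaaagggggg

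Chain RNAs made up 1.34% to 2.05% of all counts in HDR wild type (median 1.80%), 1.15% to 1.87% in *sg/sg* (median 1.54%), 3.50% to 3.97% in PE2 wild type (median 3.70%) and 3.03% to 4.72% in *peg/peg* (median 3.89%). The genotypes overlapped within each experiment, and no PE2 library fell to the level of an HDR library. Most of this was 3 genes: *Col1a1*, *Col1a2* and *Col3a1* together gave 55.5% ± 4.4 (SD, n = 5) of the chain RNA on the CPM scale in HDR wild type and 62.9% ± 6.6 (SD, n = 4) in PE2 wild type. Genes were compared per kb of merged exon, the union of the exons of all annotated transcripts, which can be longer than the expressed mRNA. The order of genes on this scale therefore depends in part on the annotation. On it *Col3a1* led in all 4 groups, at 482, 378, 1186 and 1285 CPM per kb on average in HDR wild type, *sg/sg*, PE2 wild type and *peg/peg*. *Col1a1* and *Col1a2* came next, *Col1a1* ahead in 3 groups and *Col1a2* in *sg/sg* (225 against 222 CPM per kb), and the libraries of neighbours among these 3 genes overlapped in every group except PE2 wild type. The order of *Col1a1* and *Col1a2* rests on merged lengths of 6563 and 12426 bases. Without division by length, *Col1a2* was the higher, at 4745 against 3343 CPM on average over 18 libraries. Below them came *Col4a1*, *Col18a1* (the type XVIII chain of vascular basement membranes), *Col6a1* and *Col4a2*, in an order that differed between groups, at means of 97.9 to 303 CPM per kb, with *Col14a1* (101) among them in HDR wild type. In each group the libraries of neighbours in this stretch overlapped. The step down from the type I chains was free of overlap in 3 groups, but not in *sg/sg*. At the other end, *Col2a1* and *Col9a2*, chains of cartilage collagens, *Col10a1*, the chain of growth-plate cartilage, and *Col26a1* averaged 0.164 to 0.281 CPM over the 18 libraries, with 85 to 145 counts in all per gene.

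**Figure D1:**
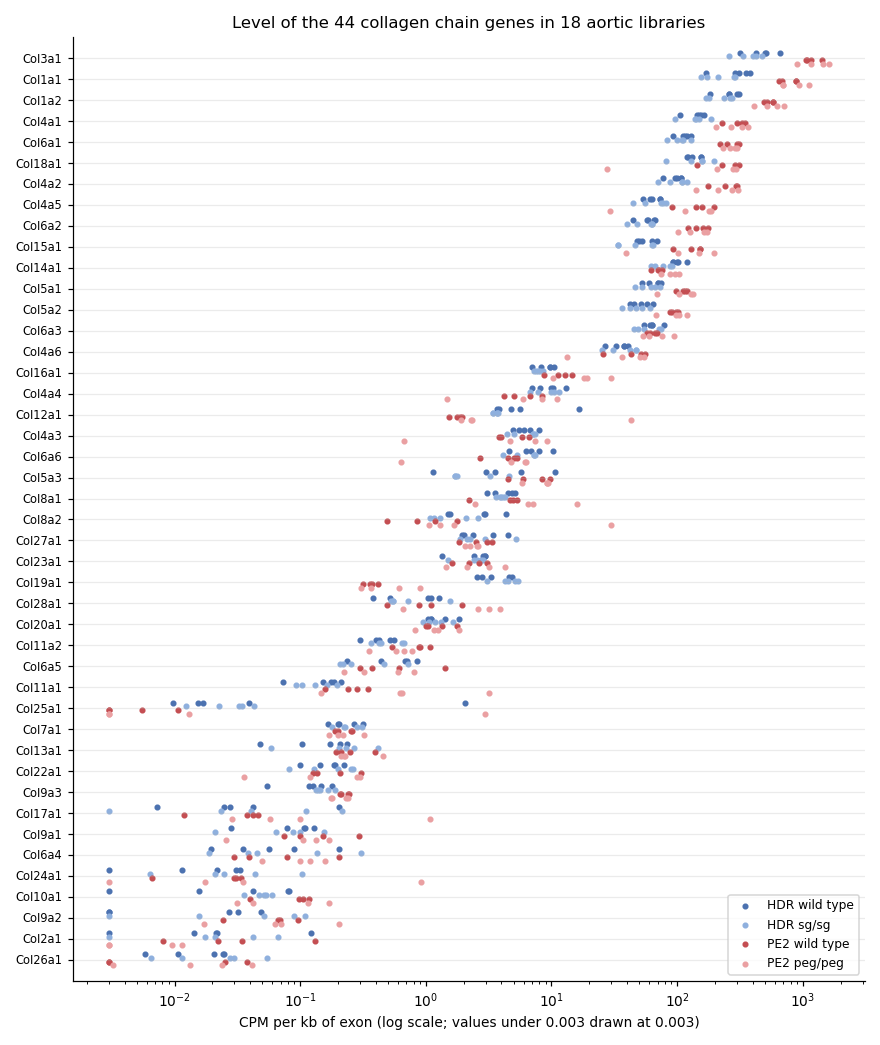
Level of each of the 44 collagen chain genes in CPM per kb of exon (log axis), 1 point per library and 1 colour per group, ordered by the mean over 18 libraries. *Col3a1* is highest in all groups, the PE2 points (red) lie to the right of the HDR points (blue) for *Col1a1*, *Col1a2*, *Col3a1*, *Col4a1*, *Col4a2*, *Col6a1* and *Col6a2*, and *Col19a1* shows the opposite order.

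The first comparison asked whether chain RNA differed between *sg/sg* and wild-type aortae at 12 weeks. No chain gene passed the threshold of an adjusted p of 0.05 (edgeR quasi-likelihood test, Benjamini-Hochberg adjustment over 16423 genes), of which *Tspan2* alone was called (0.00609%). At an unadjusted p under 0.05, 2 of the 37 tested chain genes (5.41%) stood against 1.98% of all genes, and DESeq2 and limma-voom also called 0 chain genes. The median log2 fold change of the 37 was -0.10, against 0.00 over all genes, with 25 below 0. The type I and III chains were a little lower in *sg/sg*, within the spread of the libraries.

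*Col1a1* was 2341, 2051, 1122, 2516 and 1901 CPM in WT_2 to WT_6 and 1860.3, 1904, 1134, 1013 and 1382 CPM in Mut_2 to Mut_6. The groups overlapped, with WT_4 and WT_6 among the *sg/sg* values, and the log2 fold change was -0.45 ± 0.24 (adjusted p = 1.00, edgeR). *Col1a2* was 3756, 3232, 2258, 3846 and 3231 CPM in wild type and 3293, 3405, 2124, 2219 and 2939.6 CPM in *sg/sg*, and *Col3a1* 4932, 4165, 3090.4, 6476 and 5009.8 against 4670.3, 3937, 2536, 3260.3 and 4134 CPM. WT_5 was the highest library for all 3 genes, and Mut_4 the lowest for *Col1a2* and *Col3a1*. The exact two-sided permutation p was 0.127 for *Col1a1*, 0.27 for *Col1a2* and 0.143 for *Col3a1*, where 5 against 5 cannot give less than 0.00794.

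The type IV pair was level between the HDR genotypes. *Col4a1* was 1110.0, 1069.7, 780.4, 1219.5 and 1156 CPM in wild type and 1119, 1045, 716, 1049 and 1379.6 CPM in *sg/sg*, a log2 fold change of -0.02 ± 0.18 (SE). *Col4a2* was 718, 658, 512, 718 and 634 against 796, 729, 464, 584 and 725 CPM, 0.02 ± 0.16 (log2 fold change ± SE). Mut_4 was the lowest library for both and WT_4 the next, while the highest library was Mut_6 for *Col4a1* and Mut_2 for *Col4a2*. Mut_4 lay below the other 9 HDR libraries in 16 of 39 chain genes.

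The 2 chain genes with the smallest unadjusted p in the HDR experiment were both lower in *sg/sg* and both encode FACIT chains of types XIV and XII, which bind fibril surfaces. *Col14a1* was 709.9, 839, 699, 645 and 646 CPM in wild type and 633, 618, 467, 544 and 434 CPM in *sg/sg*. These groups did not overlap, the one such case among the 37 chain genes (2.7%, against 0.298% of all genes), with -0.40 ± 0.14 (log2 fold change ± SE), an unadjusted p of 0.0135 and an adjusted p of 1.00 in edgeR, and an exact permutation p of 0.00794, the smallest these groups allow. *Col12a1* was 58.1, 251, 55.8, 72.8 and 86.3 against 52.1, 56.5, 56.2, 57.3 and 51.8 CPM, a log2 fold change of -0.94 ± 0.37 (SE, exact permutation p = 0.0317). Both genes were picked by their edgeR p in these same libraries, so neither permutation p, uncorrected for the 37 genes, is independent support. Most of the *Col12a1* difference came with WT_3, and without it the log2 fold change was -0.33 ± 0.14 (SE), and that of *Col14a1* -0.33 ± 0.15 (log2 fold change ± SE). Of the HDR libraries, WT_3 also held the highest summed skeletal muscle markers. Leaving it out moved *Acta1*, *Ckm* and *Tnnt3* but hardly the other markers of that list. The part of these markers in the chain values was not tested.

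In the other direction, the smallest unadjusted p belonged to *Col19a1*, the FACIT chain of type XIX, and *Col13a1*, the transmembrane chain of type XIII. *Col19a1* was 31.5, 19.3, 22.9, 33.7 and 17.5 CPM in wild type and 31.1, 29.5, 21, 37.2 and 35.5 CPM in *sg/sg*, overlapping, with a log2 fold change of 0.30 ± 0.20 (SE). *Col13a1* was 0.963, 0.472, 0.220, 1.09 and 0.794 against 1.93, 1.07, 1.23, 0.936 and 0.268 CPM, 0.61 ± 0.49 (log2 fold change ± SE), at 5 to 35 counts per library. Neither was distinguishable from the spread between libraries (exact permutation p = 0.23 and 0.246).

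The second comparison was between *peg/peg* and wild-type aortae at 8 weeks. Again no chain gene was called over 16401 genes, of which *Tspan2* alone was (0.00610%). The call of *Tspan2* (-3.45 ± 0.29, adjusted p = 0.0292, edgeR) was itself lost in several alternatives, since no gene at all was called with the replicate block, with sex as a covariate, in females alone or in 6 of the 8 fits that left out 1 library (all but those without wild-type replicate 3 or *peg/peg* replicate 3). DESeq2 and limma-voom called 0 chain genes in this comparison. An unadjusted p under 0.05 was reached by 5 of 39 chain genes (12.8%, against 4.30% of all genes), *Col17a1*, *Col11a1*, *Col12a1*, *Col8a2* and *Col14a1*, all higher in *peg/peg*. No chain gene had groups that did not overlap, against 2.22% of all genes. The 5 genes are read below beside *peg/peg* replicate 3, and without it 1 chain gene, *Col19a1*, had an unadjusted p under 0.05 and none was called.

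*Col1a1* was 5786, 4229.9, 4504 and 5755 CPM in wild-type replicates 1 to 4 and 7427, 6131, 4577 and 4538 CPM in *peg/peg* replicates 1 to 4. *Col1a2* was 7221, 6493, 6129 and 7200.0 against 8781, 7703, 5076 and 6512 CPM, and *Col3a1* 14020.3, 10686, 10402 and 11440.4 against 15933, 14229, 8881 and 11407 CPM. *Peg/peg* replicate 1 was the highest library for all 3, and replicate 3 the lowest for *Col1a2* and *Col3a1*. The log2 fold changes were 0.17 ± 0.29, 0.06 ± 0.28 and 0.13 ± 0.34 (SE), and the exact permutation p was 0.4, 0.743 and 0.571, where 4 against 4 cannot give less than 0.0286. For the type IV pair, *Col4a1* was 1705, 2608, 2475 and 2247 CPM in wild type and 2730.5, 2006, 1515 and 2449.8 CPM in *peg/peg* (-0.04 ± 0.24, log2 fold change ± SE). *Col4a2* was 1172, 1979.5, 1937 and 1584 against 2004, 1404, 941 and 1811 CPM (-0.10 ± 0.28, log2 fold change ± SE). Both were lowest in *peg/peg* replicate 3 and next lowest in wild-type replicate 1, and the genotypes overlapped throughout.

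**Figure D2:**
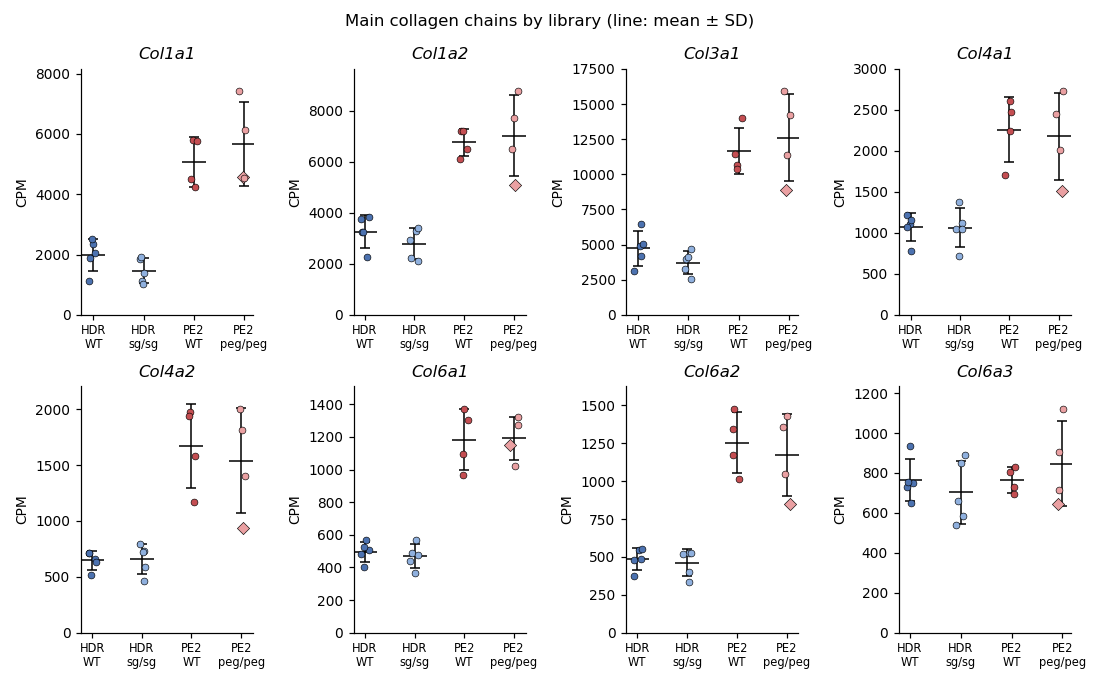
CPM of 8 chain genes in each library, with group mean ± SD (n = 5, 5, 4 and 4) and the diamond marking *peg/peg* replicate 3. Genotypes overlap within each experiment, while every PE2 library is above every HDR library for 7 of the 8 genes and not for *Col6a3*.

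For each of these 5 genes, replicate 3 was the highest PE2 library. *Col14a1* was 529, 496, 431 and 506 CPM in wild type and 672, 618, 721 and 523 CPM in *peg/peg*, with 0.38 ± 0.15 (log2 fold change ± SE) and 0.30 ± 0.14 without replicate 3. *Col12a1* was 27, 29.3, 23.3 and 28.7 CPM in wild type and 35.2, 34.7, 658 and 29.0 CPM in *peg/peg*, so the log2 fold change of 2.81 ± 1.09 (SE) became 0.29 ± 0.13 (log2 fold change ± SE) without replicate 3. *Col8a2*, a short-chain network collagen of type VIII, was 7.90, 2.22, 3.79 and 5.28 against 5.80, 7.57, 135 and 4.79 CPM, and 2.99 became 0.33 without that library. For *Col8a2* the other 3 *peg/peg* libraries lay within the wild-type range, and for *Col12a1* 2 of the 3 lay above it, at up to 35.2 against 29.3 CPM.

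*Col17a1*, the transmembrane chain of epithelial anchoring junctions, had the smallest unadjusted p of the PE2 experiment among chain genes (0.0269, edgeR) at 0.275, 0.255, 0.229 and 0.0710 CPM in wild type and 0.604, 0.171, 6.50 and 0.346 CPM in *peg/peg*. *Col11a1*, a fibrillar chain best known from cartilage, was 3.05, 1.99, 3.59 and 4.40 against 8.24, 8.01, 40.7 and 1.86 CPM, with 2.18 ± 0.83 (log2 fold change ± SE) and 0.90 ± 0.51 without replicate 3. Replicates 1 and 2 were also above wild type for *Col11a1*, and replicate 4 was below it. In the other direction, *Col11a2*, a second type XI chain, was 3.68, 6.03, 7.38 and 6.13 against 5.32, 4.59, 2.43 and 3.97 CPM (-0.49 ± 0.30, log2 fold change ± SE). *Col27a1*, another fibrillar chain of cartilage, was 23.8, 32.4, 39.9 and 43.5 against 26.6, 33.3, 29.1 and 34.0 CPM (-0.17 ± 0.19, log2 fold change ± SE). The groups overlapped for all 4 genes, with an exact permutation p of 0.143, 0.143, 0.171 and 0.429 in the order given.

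Further genes, named after their values were seen, show how replicate 3 departed from its group. *Col25a1*, a transmembrane chain of neurons and developing muscle, was 38.4 CPM in replicate 3 and 0 to 0.169 CPM in the other 7 PE2 libraries, and in the HDR experiment 26.6 CPM in WT_3 and 0.125 to 0.560 CPM in the rest. *Col24a1*, a minor fibrillar chain, was 6.95 CPM in replicate 3 and at most 0.269 CPM in the other PE2 libraries. *Col18a1* was the reverse, at 196 CPM in replicate 3 and 1006 to 2165 CPM in the others. Among the network chains, *Col4a3* (6.69 against 38.1 to 91.1 CPM), *Col4a5* (195 against 611 to 1322 CPM) and *Col4a6* (106 against 207 to 445 CPM) were low with it. In all, 10 chain genes lay above and 20 below the other 7 libraries. The summed endothelial markers were low in the same library (581 CPM over 6 genes, against 1216 to 2676 CPM). Not every endothelial marker was low: *Emcn* was above the other PE2 libraries (60.0 against 21.5 to 53.0 CPM). *Kdr* was within their range (78.2 against 73.3 to 109.5 CPM). The part of any of these marker levels in the chain values was not tested.

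**Figure D3:**
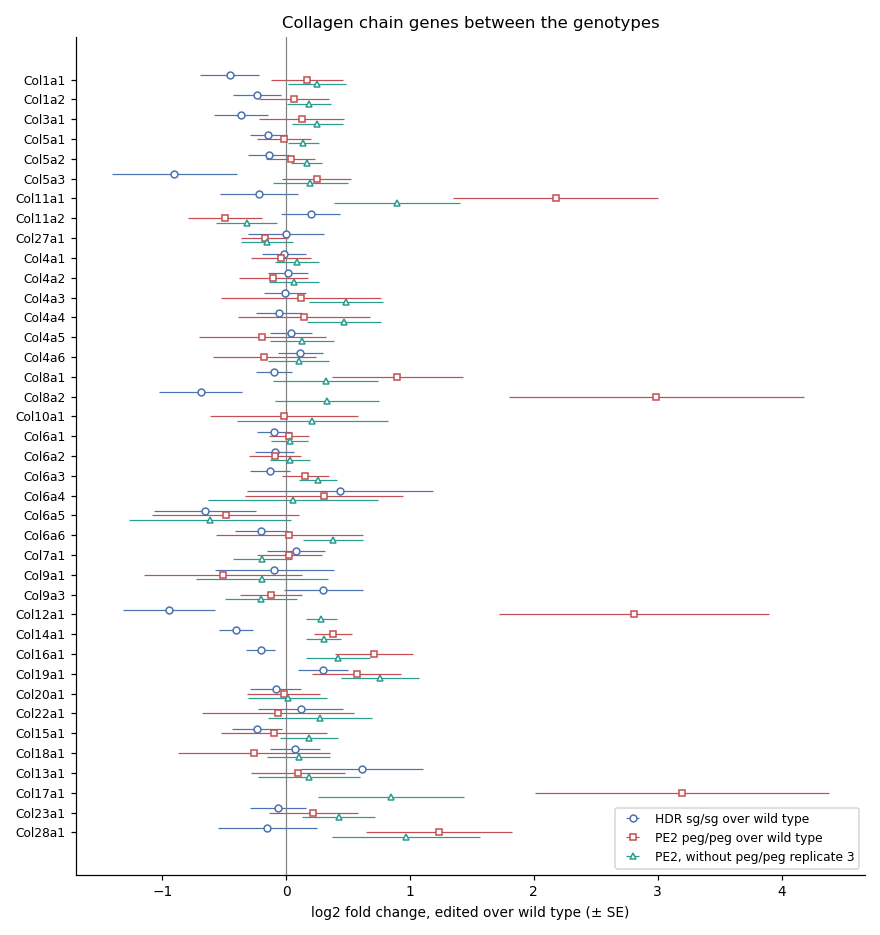
Log2 fold change ± SE of each tested chain gene, *sg/sg* over wild type (blue circles), *peg/peg* over wild type (red squares) and the latter without *peg/peg* replicate 3 (green triangles). No point is called at an adjusted p of 0.05, and the PE2 values above 2 for *Col8a2*, *Col11a1*, *Col12a1* and *Col17a1* fall below 1 without replicate 3.

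The difference between the PE2 and HDR genotype effects was tested as an interaction over all 18 libraries. No gene of 18094 was called in edgeR (0%) and none of the 39 chain genes, while limma-voom called 0 and DESeq2 called 13 genes, none of them a chain gene. At an unadjusted p under 0.05, 6 chain genes (15.4%) stood against 5.13% of all genes, all with a higher effect in PE2. The interaction was 0.61 ± 0.37 (log2 fold change ± SE) for *Col1a1*, 0.28 ± 0.31 for *Col1a2*, 0.47 ± 0.36 for *Col3a1*, -0.05 ± 0.30 for *Col4a1* and -0.14 ± 0.32 for *Col4a2* (log2 ± SE, adjusted p of 0.974 to 1.00 in edgeR). Without both WT_3 and *peg/peg* replicate 3, 2 of 39 chain genes had an unadjusted p under 0.05, *Col12a1* (0.61 ± 0.18) and *Col14a1* (0.64 ± 0.21), and none was called.

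The wild types of the 2 experiments differ in age, strain label, depth and experiment, which cannot be told apart, so the next values compare experiments and not ages. In this contrast, 59.7% of 16930 genes were called, 29.0% higher and 30.6% lower in PE2. Of 37 chain genes, 20 (54.1%) were called, 14 higher (37.8%) and 6 lower (16.2%). The median log2 fold change of the chain genes was 0.40, against 0.02 over all genes. The share called was close to that of all genes, and the share called lower was below it. In 12 chain genes (32.4%, against 23.4% of all genes) every PE2 wild-type library was above every HDR wild-type library.

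Fibrillar chains made up 6 of the 14 higher genes. *Col1a1* (1.35 ± 0.24, adjusted p = 0.000543, edgeR), *Col3a1* (1.30 ± 0.23, adjusted p = 0.000533, edgeR) and *Col1a2* (1.05 ± 0.19, adjusted p = 0.000618, edgeR) were each more than 2-fold higher in PE2 wild type on the fitted scale. Their libraries, given above, did not overlap: the highest HDR wild-type library held 2516 CPM of *Col1a1* and the lowest PE2 wild-type library 4229.9. The type V chains *Col5a1* and *Col5a2*, which help start type I fibrils and were named after their values were seen, rose by 0.76 ± 0.14 and 0.87 ± 0.15. Of 9 tested fibrillar chains none was called lower.

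Of the network chains, those of the common basement membrane trimer were higher. *Col4a2* rose by 1.36 ± 0.18 (adjusted p = 8.13e-05, edgeR) and *Col4a1* by 1.08 ± 0.18 (adjusted p = 0.000353, edgeR), and *Col4a5*, a chain of smooth muscle and kidney basement membranes that was named after its values were seen, by 1.18 ± 0.20. *Col4a4* went the other way, at 138, 109, 105, 85.3 and 74.1 CPM in HDR and 72.1, 53.5, 44.7 and 88.6 CPM in PE2 wild type (-0.66 ± 0.23, adjusted p = 0.0299, edgeR), with overlapping libraries. *Col8a2* was 6.79, 19.4, 6.94, 13.2 and 13.0 CPM in HDR and 7.90, 2.22, 3.79 and 5.28 CPM in PE2 wild type (-1.30 ± 0.40, adjusted p = 0.0162, edgeR), again with overlap and highest in WT_3. The calls of *Col8a2* and *Col4a4* were lost when all 18 libraries shared 1 fit, as were those of *Col6a6* and *Col18a1*. Without WT_3, *Col4a4*, *Col6a6* and *Col9a3* were no longer called (adjusted p = 0.0505, 0.0600 and 0.0600, edgeR), and *Col16a1* was called. Leaving out WT_2, WT_4, or PE2 wild-type replicate 2 or 3 also ended the call of *Col4a4*, and leaving out WT_2 or PE2 wild-type replicate 1 that of *Col6a6*.

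The type VI chains split. *Col6a1* was 485, 505, 403, 567 and 524 CPM in HDR and 964, 1372, 1305 and 1094 CPM in PE2 wild type (1.25 ± 0.15, adjusted p = 4.19e-05, edgeR). *Col6a2* was 547, 553, 374, 482 and 486 against 1013, 1477, 1344 and 1175 CPM (1.36 ± 0.16, adjusted p = 4.01e-05, edgeR). Neither overlapped between the experiments. *Col6a3*, the long chain that joins them and that was named after its values were seen, was 936, 750.4, 728, 755 and 648 against 693, 804, 830.2 and 731 CPM, a log2 fold change of 0.00 ± 0.14 (adjusted p = 0.999, edgeR), with PE2 libraries inside the HDR range. *Col6a6*, an alternative long chain, was 73.0, 93.6, 57.6, 63.4 and 42.1 against 41.1, 24.7, 46.0 and 49.2 CPM (-0.71 ± 0.25, adjusted p = 0.0278, edgeR), lower with overlap.

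FACIT chains held the largest fall among the chain genes, with 3 of 8 tested called lower and 1, *Col9a3*, a minor chain of type IX, higher. The call of *Col9a3* (0.86 ± 0.33, adjusted p = 0.0441, edgeR) was lost in 12 of 17 alternatives, among them DESeq2, both other count filters and every fit that left out 1 library except the one without WT_5. *Col19a1* was 31.5, 19.3, 22.9, 33.7 and 17.5 CPM in HDR wild type and 2.88, 2.48, 2.19 and 2.58 CPM in PE2 wild type, with the lowest HDR library far above the highest PE2 library (-3.30 ± 0.23, adjusted p = 2.30e-06, edgeR). *Col12a1* was 58.1, 251, 55.8, 72.8 and 86.3 against 27, 29.3, 23.3 and 28.7 CPM (-1.95 ± 0.43, adjusted p = 0.00243, edgeR), and without WT_3, the highest library, -1.34 ± 0.15 (adjusted p = 7.08e-05, edgeR). Its groups did not overlap with or without that library. *Col14a1* fell by a smaller amount (-0.53 ± 0.13, adjusted p = 0.00467, edgeR), to 529, 496, 431 and 506 CPM in PE2 wild type, all below the HDR wild-type values given above. Both multiplexins, again named after their values were seen, were higher, *Col15a1* by 1.21 ± 0.18 and *Col18a1* by 0.83 ± 0.21, the latter with overlap through PE2 wild-type replicate 1 at 1006 CPM.

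The edited libraries gave the same contrast in animals that the wild-type comparison did not use. Here 51.5% of 16596 genes were called, 23.3% higher and 28.3% lower in PE2, and 15 of 38 chain genes (39.5%), 14 higher (36.8%) and 1 lower (2.63%), with a median log2 fold change of 0.60 against 0.01 over all genes. In 10 chain genes (26.3%, against 19.5% of all genes) every *peg/peg* library was above every *sg/sg* library. *Col1a1* was 1.89 ± 0.29 (adjusted p = 0.000452, edgeR), *Col3a1* 1.70 ± 0.31 (adjusted p = 0.00125, edgeR) and *Col1a2* 1.26 ± 0.27 (adjusted p = 0.00355, edgeR). *Col4a1* was 0.97 ± 0.24 (adjusted p = 0.00775, edgeR), *Col4a2* 1.16 ± 0.25 (adjusted p = 0.00371, edgeR), *Col6a1* 1.28 ± 0.17 (adjusted p = 0.000165, edgeR) and *Col6a2* 1.28 ± 0.21 (adjusted p = 0.000759, edgeR). *Col19a1* was the gene called lower (-3.11 ± 0.34, adjusted p = 6.21e-05, edgeR).

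Of the 37 chain genes tested in both contrasts, 10 (27%, against 20.1% of 16325 genes) were called higher in both: *Col1a1*, *Col1a2*, *Col3a1*, *Col5a1*, *Col5a2*, *Col4a1*, *Col4a2*, *Col6a1*, *Col6a2* and *Col15a1*. In the edited libraries the call of *Col15a1* was lost with limma-voom and without Mut_4, Mut_5, or *peg/peg* replicate 1 or 4. *Col19a1* was the 1 chain gene (2.7%, against 25.4%) called lower in both. The 5 other genes lower in the wild types were not called in the edited libraries, among them *Col12a1*, at 1.74 ± 0.90 (adjusted p = 0.130, edgeR), and *Col8a2*, at 2.32 ± 0.98 (adjusted p = 0.0716, edgeR). Without *peg/peg* replicate 3, both turned below 0, *Col12a1* to -0.74 ± 0.12 (adjusted p = 0.000492, edgeR) and *Col8a2* to -0.29 ± 0.32 (adjusted p = 0.464, edgeR). In that fit 18 of 38 chain genes were called, against 54.8% of all genes, and the median log2 fold change of the chain genes was 0.40. *Col4a5* (1.25 ± 0.24) and *Col18a1* (0.82 ± 0.26) were now among the higher genes. *Col6a6* (-0.57 ± 0.51, log2 fold change ± SE) and *Col4a4* (-0.54 ± 0.45, log2 fold change ± SE) were not called with or without replicate 3. Of genes called in the edited libraries alone, *Col5a3*, a minor type V chain named after its values were seen, was 12.2, 11.6, 11.7, 31.1 and 22 CPM in *sg/sg* and 63.3, 63.7, 62.6 and 39.7 CPM in *peg/peg* (1.63 ± 0.32, adjusted p = 0.00207, edgeR). The others were *Col11a1* (3.01 ± 0.74), *Col16a1* (1.24 ± 0.25) and *Col28a1* (1.66 ± 0.51). Each of these others was highest of the PE2 libraries in replicate 3, at 40.7, 201 and 19.0 CPM, and was still called without that library.

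**Figure D4:**
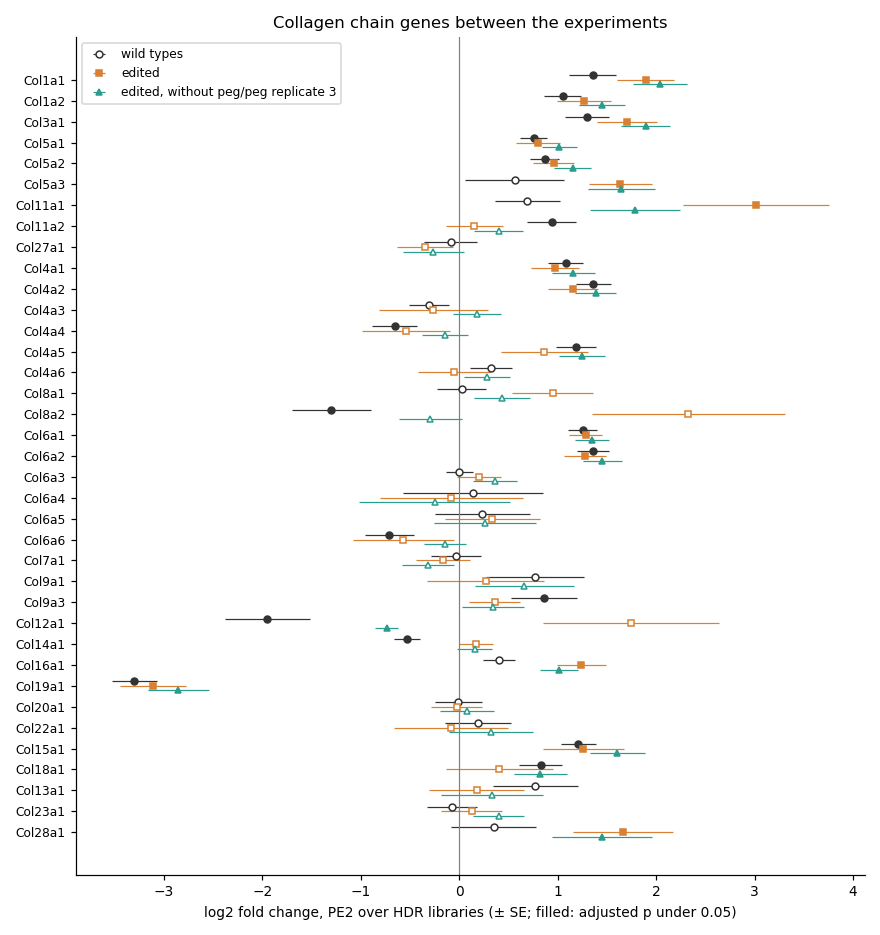
Log2 fold change ± SE of each chain gene, PE2 over HDR, in wild-type libraries (black circles), edited libraries (orange squares) and edited libraries without *peg/peg* replicate 3 (green triangles), with filled symbols for an adjusted p under 0.05. *Col1a1*, *Col1a2*, *Col3a1*, *Col4a1*, *Col4a2*, *Col6a1* and *Col6a2* lie above 0 and are filled in all 3 fits, *Col19a1* lies at -3.30, -3.11 and -2.85, and *Col12a1* and *Col8a2* change side with replicate 3.

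Ratios of chains within a library need no scaling between libraries, and were taken per kb as a description. Their absolute values depend on the merged exon lengths, so they are compared between groups and not read as proportions of chains. *Col1a1* to *Col1a2*, the chains of type I, was 0.941 to 1.24 in HDR wild type, 0.864 to 1.07 in *sg/sg*, 1.23 to 1.52 in PE2 wild type and 1.32 to 1.71 in *peg/peg*. The *sg/sg* libraries did not reach the PE2 ratios, and WT_5, the highest HDR library for this ratio, overlapped PE2 wild type (1.24 against a lowest value of 1.23). *Col4a1* to *Col4a2* was 1.35 to 1.62 in HDR and 1.13 to 1.29 in PE2 wild type, which did not overlap, while *sg/sg* (1.25 to 1.69) and *peg/peg* (1.20 to 1.43) did, and *Col6a1* to *Col6a2* was 1.69 to 2.24 over the HDR libraries and 1.75 to 2.58 over the PE2 libraries, overlapping. *Col6a3* to *Col6a1* was 0.453 to 0.706 in HDR wild type and 0.423 to 0.668 in *sg/sg*, but 0.214 to 0.263 in PE2 wild type and 0.205 to 0.323 in *peg/peg*, with no overlap between the experiments. *Col4a5* to *Col4a6*, neighbours on chromosome X, was 1.6 to 2.24 over the HDR libraries and 3.05 to 3.69 over the PE2 libraries other than *peg/peg* replicate 3, where it was 2.18. *Col12a1* to *Col14a1* was 0.0368 to 0.0616 in the HDR libraries other than WT_3, 0.138 in WT_3, 0.0235 to 0.0272 in the PE2 libraries other than *peg/peg* replicate 3, and 0.42 in that library.

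**Figure D5:**
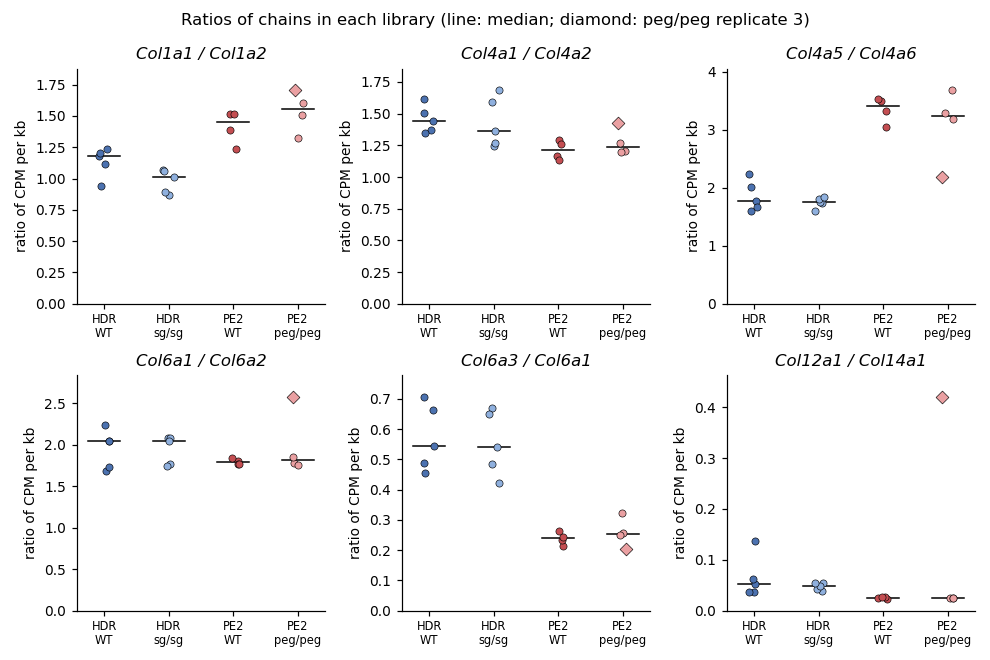
Ratio of CPM per kb for 6 pairs of chain genes in each library, with the group median as a line and *peg/peg* replicate 3 as a diamond. *Col6a3* to *Col6a1* separates the experiments without overlap, *Col6a1* to *Col6a2* overlaps in all groups, and *Col12a1* to *Col14a1* is highest in *peg/peg* replicate 3 and next in WT_3.

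The genes that make, deposit and read collagen were followed as lists. Of 30 genes of collagen modification, folding, secretion and processing, none was called between genotypes in either experiment or in the interaction. The smallest unadjusted p was that of *Bmp1*, the procollagen C-proteinase, in HDR (-0.25 ± 0.10, unadjusted p = 0.0221 in edgeR) and of *Loxl4*, a lysyl oxidase, in PE2 (0.96 ± 0.39, unadjusted p = 0.0411 in edgeR). *Loxl4* was 17.6 CPM in *peg/peg* replicate 3 and 3.17 to 8.72 CPM in the other PE2 libraries. Without replicate 3 its log2 fold change was 0.54 ± 0.31 (unadjusted p = 0.117 in edgeR). Between wild types, 22 of the 30 were higher and 2 lower in PE2, with a median of 0.89 on the log2 scale against 0.02 over all genes, and between edited libraries 17 were higher and 2 lower, with a median of 0.83 against 0.01. The shares of all genes were 29.0% higher and 30.6% lower between wild types, and 23.3% and 28.3% between edited libraries. *Loxl2*, a collagen cross-linking oxidase, was 1.99 ± 0.15 (adjusted p = 3.24e-06, edgeR) between wild types and 2.33 ± 0.17 (adjusted p = 8.14e-06, edgeR) between edited libraries. *P3h4*, of the prolyl and lysyl hydroxylation machinery, was 1.29 ± 0.12 and 1.26 ± 0.19, and *Ppib*, a prolyl isomerase of collagen folding, 1.35 ± 0.14 and 1.25 ± 0.16. *Mia3*, which helps load procollagen into transport carriers, was lower in both (-0.73 ± 0.09 and -0.75 ± 0.10), as was *Adamts3*, a procollagen N-proteinase (-1.50 ± 0.25 and -0.99 ± 0.28).

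Among 15 tested fibril partners, 5 were higher and 3 lower in PE2 wild type, and 3 higher and 2 lower in the edited libraries. *Sparc*, a collagen-binding matricellular protein, was 2.76 ± 0.26 (adjusted p = 9.97e-06, edgeR) and 2.71 ± 0.33 (adjusted p = 0.000117, edgeR), and *Bgn*, a small proteoglycan, 1.47 ± 0.19 between wild types. *Tnxb*, a tenascin that bridges fibrils, was lower in both (-1.16 ± 0.22 and -1.03 ± 0.19). Of 10 tested collagen receptors, 2 were higher and 4 lower between wild types, and 2 higher and 1 lower between edited libraries. The discoidin receptors parted, *Ddr1* at 0.96 ± 0.18 and 0.63 ± 0.14, and *Ddr2* at -0.74 ± 0.14 and -0.47 ± 0.16. All-gene shares were 29.0% higher and 30.6% lower between wild types, and 23.3% and 28.3% between edited libraries. No partner or receptor was called between genotypes. Medians of the partners were -0.19 and 0.46, and of the receptors -0.56 and -0.01, between wild types and edited libraries. *Kera* was at 0 in 7 libraries and *Gp6* in 2.

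Between HDR genotypes no marker was called, and at an unadjusted p under 0.05 (edgeR) 3 of 6 skeletal muscle markers were higher in *sg/sg* while 3 of 4 tested leukocyte and 3 of 4 tested proliferation markers were lower, against 1.98% of all genes in either direction. Markers were also called between the experiments, where 29.0% of all genes were called higher and 30.6% lower in PE2 wild type. Of 7 smooth muscle markers, 3 were higher in PE2 wild type and none lower, their sum being 20165 to 30007 CPM in HDR and 27318 to 47728 CPM in PE2 wild type. Of 7 fibroblast markers, 2 were higher and 1, *Pdgfra* (-1.41 ± 0.22), lower, with sums of 2046 to 3478 and 1730 to 4691 CPM. Of 6 endothelial markers, 4 were higher and none lower, with sums of 842 to 1749 and 1321 to 1976 CPM. Of 5 proliferation markers, 3 were higher and none lower, with sums of 14.5 to 35.1 and 21.4 to 53.5 CPM. The adipocyte list had 1 of 6 higher (*Ucp1*, sums 823 to 4037 and 1651 to 4589 CPM), the skeletal muscle list 1 of 6 higher (*Mylpf*, sums 5.22 to 125 and 7.48 to 19.6 CPM), the leukocyte list 1 of 6 higher (*Cd79a*) and 1 lower (*Ptprc*, sums 78.4 to 184 and 34.9 to 97.9 CPM), the Schwann cell list 1 of 4 lower (*Cdh19*, sums 14.5 to 59.8 and 15.6 to 63.0 CPM), and the cartilage list, with 3 of 7 tested, 1 higher (*Chad*) and 1 lower (*Hapln1*, sums 25.5 to 59.4 and 21.8 to 44.2 CPM). Among the cartilage markers *Ucma* was at 0 in 15 libraries, *Matn1* in 11 and *Cnmd* in 3. Between edited libraries, 4 of 7 fibroblast, 2 of 7 smooth muscle, 1 of 6 endothelial, 2 of 4 Schwann cell and 4 of 4 tested proliferation markers were higher in PE2 and none of these lists had a marker lower. In this contrast 23.3% of all genes were called higher and 28.3% lower. The skeletal muscle list had 2 of 6 higher (*Acta1* and *Ckm*) and 2 lower (*Myh4* and *Atp2a1*), the leukocyte list 1 of 5 tested higher (*Cd68*) and 1 lower (*Ptprc*), the cartilage list 1 of 3 tested higher (*Chad*) and 1 lower (*Hapln1*), and no adipocyte marker was called. *Acta1* and *Ckm* were high in *peg/peg* replicate 3 alone, at 753 and 299 CPM. The other PE2 libraries held 1.12 to 6.80 CPM of *Acta1* and 2.33 to 5.25 CPM of *Ckm*, beside *sg/sg* means of 4.08 and 5.06 CPM. The part of these marker levels in the chain values was not tested.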

How the data were processed

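Whole aortae, snap frozen and extracted with a column kit, were profiled by bulk RNA-seq (18 libraries, 4 groups). The authors deposited raw counts per gene symbol for each experiment, made with fastp, STAR 2.7.0f (GRCm38, Gencode M22) and featureCounts of Subread 1.6.4. Their strand setting is not given in the sources used here, and the labels and the methods name different library kits, of which 1 keeps strand. Without strand, reads from the overlapping 5′ ends of *Col4a1* and *Col4a2* cannot be told apart. The authors' DESeq2-normalised tables were not used, and 0 columns of per-sample values were left out of the count tables.

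All genes were fitted with edgeR 4.0.16 (TMM, filterByExpr, glmQLFit, glmQLFTest; R 4.3.3), with Benjamini-Hochberg adjusted p under 0.05 as the threshold. HDR and PE2 genotypes were fitted alone, wild types and edited libraries between experiments alone, and the interaction over all 18 libraries. P-values measure the spread between libraries labelled as separate animals. Single values were compared with exact two-sided permutation tests (scipy 1.17.1). Exon lengths and positions came from Gencode M21, promoters from RefSeq. Alternatives were DESeq2 size factors, TMM without the chain genes, DESeq2 1.42.0 (Wald test), limma 3.58.1 (voom), other count filters, robust dispersions, adjusted p under 0.10, 1 fit of all 18 libraries, replicate block, sex and each library left out in turn. The scripts were tested on simulated counts. The members and lists were chosen with earlier results of these data known. The named genes were *Col1a1*, *Col1a2*, *Col3a1*, *Col4a1* and *Col4a2*, the 2 with the smallest p in each direction per genotype comparison and the 5 largest changes in each direction among genes called between wild types with a mean of at least 1 CPM. Of the 44 chain genes 4, *Col2a1*, *Col24a1*, *Col9a2* and *Col26a1*, passed the expression filter of no fit.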

Additional observations from a re-analysis of the deposited data

Results flagged for a closer look

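Of 156 groups of 4 or 5 libraries examined (28 chain genes, chosen by the naming rule or named after their values were seen, 10 chain ratios and the chains' share of all counts, each in 4 groups), 16 held a library far from the others by Dixon's gap test at the 95% level, where chance gives about 1 in 20 groups. Because genes were chosen partly by these values and the ratios reuse the same genes, the 16 cannot be compared with that rate. Of the 16, 8 were in *peg/peg* replicate 3 and 4 in WT_3.

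In *peg/peg* replicate 3 the values were 658 CPM for *Col12a1* (29.0 to 35.2 CPM in the other 3 libraries), 135 CPM for *Col8a2* (4.79 to 7.57), 40.7 CPM for *Col11a1* (1.86 to 8.24), 38.4 CPM for *Col25a1* (0.0244 to 0.169), 6.95 CPM for *Col24a1* (0 to 0.269) and 6.50 CPM for *Col17a1* (0.171 to 0.604). The per-kb ratios there were 2.58 for *Col6a1* to *Col6a2* (1.75 to 1.85) and 0.420 for *Col12a1* to *Col14a1* (0.0241 to 0.0258).

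In WT_3, *Col12a1* was 251 CPM (55.8 to 86.3 CPM in the other 4 libraries), *Col25a1* 26.6 CPM (0.125 to 0.507), *Col17a1* 1.23 CPM (0.0439 to 0.253) and the ratio of *Col12a1* to *Col14a1* 0.138 (0.0368 to 0.0616). Among the rest, *Col5a3* was 39.7 CPM in *peg/peg* replicate 4 (62.6 to 63.7), *Col13a1* 2.10 CPM in *peg/peg* replicate 1 (0.977 to 1.04), *Col24a1* 0.05002 CPM in PE2 wild-type replicate 1 (0.229 to 0.255) and the ratio of *Col5a1* to *Col5a2* 1.36 in PE2 wild-type replicate 3 (1.08 to 1.12).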

How the results depend on the processing

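No chain gene was called between genotypes or in the interaction under any alternative run. The count called at an adjusted p under 0.05 was 17 to 21 between wild types and 12 to 20 between edited libraries. At an adjusted p under 0.10 it was 22 between wild types. The number of chain genes tested also changed with the alternative, from 33 to 44. At an adjusted p under 0.05, the share of all genes called was 32.4% to 60.1% between wild types and 24.8% to 57.4% between edited libraries. Both shares were lowest without a filter on low counts. When single libraries were left out, directions changed for several differences near 0 between genotypes and for *Col12a1* and *Col8a2* between edited libraries. Between genotypes, the lowest and highest log2 fold changes were -0.122 and 0.0929 for *Col4a1* and -0.0594 and 0.116 for *Col4a2* in HDR, -0.174 and 0.0883 for *Col4a1*, -0.258 and 0.0652 for *Col4a2*, -0.0648 and 0.183 for *Col1a2* and -0.00816 and 0.254 for *Col3a1* in PE2, and -0.177 and 0.092 for *Col4a1* and -0.295 and 0.0381 for *Col4a2* in the interaction. Without WT_3 and *peg/peg* replicate 3 together, an alternative chosen after seeing the data, the interaction was 0.0945 for *Col4a1* and 0.0362 for *Col4a2*. Between edited libraries, where the values with all libraries were 1.74 and 2.32, neither called, the range was -0.74 to 2.14 for *Col12a1* and -0.29 to 2.73 for *Col8a2*, the lowest being without *peg/peg* replicate 3. The cause was not tested.

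With the replicate number as a block, the PE2 comparison called 0 of 43 tested chain genes (1 at an unadjusted p under 0.05, smallest adjusted p = 0.965 in edgeR). Deviations of same-numbered PE2 libraries from their group means had correlations of -0.242 to -0.028, and those of differently numbered libraries -0.314 to 0.436. These values gave no sign of pairing by number but, with so few libraries, cannot exclude it. The HDR columns could not be paired. DESeq2's Wald test called 4 genes of all in HDR, 30 in PE2 and 13 in the interaction, against 1, 1 and 0 in edgeR. Depth limits the low chains, such as *Col13a1*, at 5 to 87 counts per library, for which no difference was detectable between genotypes.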

Other observations

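Within the HDR experiment, *Lox*, the main lysyl oxidase of collagen cross-linking, fell into separate ranges that did not follow genotype. It was 129, 139, 127, 104, 145 and 118 CPM in WT_2, WT_3, WT_4, Mut_2, Mut_3 and Mut_4, and 358, 337, 322 and 443 CPM in WT_5, WT_6, Mut_5 and Mut_6. *Comp*, a matrix protein that binds collagen fibrils, was 18.5, 16, 19.3, 17.4, 16.2 and 18.1 CPM in the first 6 and 47.1, 49.0, 38.0 and 38.1 CPM in the other 4. *Serpinh1*, of the collagen-making list, was 361 to 487 CPM in the first 6 and 638 to 971 CPM in the other 4. Within a genotype, the Spearman correlation across genes was 0.986 for WT_5 with WT_6 and for Mut_5 with Mut_6. Between the ranges it was 0.961 to 0.980. The labels give 3 females and 2 males in each HDR group, but no column is tied to a sex, and the HDR fits had no term for this split. The libraries were noticed by their values, so neither the difference nor any relation to sex was tested.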
